A study of Mus musculus with 6 samples.

Results

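The genes described here are 33 genes of fatty acid oxidation, chosen by name from the 47069 genes of the count table. They cover the carnitine shuttle (7 genes), the acyl-CoA dehydrogenases (7), the other mitochondrial beta-oxidation enzymes (7), the electron transfer proteins (3), the peroxisomal enzymes (6) and a group of genes for fuel switching and uncoupling (3). For the comparison of the compartments, 20 of them form a mitochondrial arm and 6 a peroxisomal arm. The other 7 (Cpt1c, Slc22a5, Crat, Acad11, Pdk4, Ucp2 and Ucp3) were placed in neither arm. All 33 passed the filter on low counts.

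The study asked what PSB-KD107, an agonist of the G protein-coupled receptor Gpr18, does to muscle precursor cells of mdx mice, which lack dystrophin and are a model of Duchenne muscular dystrophy. RNA was sequenced in 3 libraries from vehicle-treated cells (numbered 1, 2 and 4 in the count table) and 3 from cells given 10 µM PSB-KD107 (1, 2 and 4), a compound the treatment labels spell PSB-KD-1. All 6 libraries came from mdx cells, so that there was no healthy control and no cell without the dystrophin defect. The labels call them muscle stem cells or satellite cells and the methods call them myoblasts from 3 mice, sorted from muscle by surface markers and grown in medium with serum and FGF2. The labels give a treatment of 2 days, where the methods give a shorter one. Neither source states whether libraries with the same number came from the same mouse.

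Library totals ran from 30917613 to 48756794 counts, and 3 counts, taken as the floor of detection, corresponded to 0.0596 to 0.0962 CPM. CPM are the counts of a gene relative to the library total, here scaled by TMM factors, which ran from 0.974 to 1.03, and fold changes and tests come from edgeR's quasi-likelihood test over 14165 genes with Benjamini-Hochberg adjustment. The median log2 fold change of all genes tested was -7.4e-04. The myoblast markers summed to between 5888 and 6377 CPM in the vehicle libraries and between 5827 and 5999 CPM under PSB-KD107, sums led by Des. Of the 7, 5 were lower and 2 higher (log2 fold changes of 0.73 for Myf5 and 0.15 for Des). Only in Pax7, a marker of muscle stem cells, did the groups not overlap. Pax7 was at 68.8, 49.9 and 60.0 CPM in vehicle and at 34.0, 26.8 and 35.1 CPM under PSB-KD107 (log2 fold change -0.90, SE 0.17, adjusted p = 0.209 in edgeR, 0.00192 in DESeq2). Those of muscle differentiation, led by Myh3, were also abundant, at 30333 to 38867 CPM in vehicle and 25712 to 29773 CPM under PSB-KD107, 2 ranges that did not overlap. Summed markers of fibro-adipogenic progenitors (at most 9.85 CPM), macrophages (at most 6.56 CPM, Adgre1 at 0), endothelial cells (at most 0.990 CPM) and adipocytes (at most 0.0642 CPM, Plin1 at 0) were low in every library.

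Fatty acids are broken down in mitochondria and in peroxisomes. For the mitochondrial route, long-chain acyl groups are passed to carnitine by CPT1 at the outer membrane, carried across the inner membrane by the translocase Slc25a20 and returned to coenzyme A by CPT2. Each turn of the beta-oxidation spiral then takes a dehydrogenation, a hydration, a further dehydrogenation and a thiolysis, and the electrons of the first step reach the respiratory chain through the electron transfer flavoprotein. Peroxisomes run a spiral of their own on very long and branched chains, with an oxidase at the first step, and pass shortened chains on to mitochondria. Many genes of both routes are known targets of the PPAR receptors, which bind a direct repeat of a short sequence. CPT1 exists as isoforms, Cpt1a being the form of liver and many other cells, Cpt1b the form of muscle fibres and Cpt1c a brain form of low catalytic activity.

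Because the PPAR site is the sequence feature most often linked to these genes, RefSeq promoter windows (GRCm38.p6, 250 bases before to 50 bases after the start, 300 in all) were searched on both strands for this direct repeat, known as DR1, which is AGGTCA written 2 times with any 1 base between the copies. Windows were matched for 27 of the 33 genes, and Cpt1b, Crat, Acad9, Acaa2, Decr1 and Hsd17b4 had none. None held the exact repeat, against 13 of 27025 genes (0.0481%) in the whole table. With up to 2 mismatches it was found for 4 of the 27 (14.8%), against 1190 of all 27025 genes (4.4%). The matched letters follow as the gene's own strand reads them, from the first base of the match at -51 in Ucp3, -83 in Echs1, -77 in Etfa (a match on the opposite strand) and 6 bases past the start in Slc25a20.
Ucp3: AGGTTTCAGGTCA
Echs1: AGGTCACGGGTCC
Etfa: TTACCTTTGCCCT
Slc25a20: AGGTGAAAGGTCG

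The 250 bases before the start are shown for Ucp3, the member of the largest log2 fold change (plus strand, chr7:100472741-100472990), and for Echs1, the only gene among the 4 whose groups did not overlap (minus strand, chr7:140116422-140116671), with the match in capitals.
Ucp3: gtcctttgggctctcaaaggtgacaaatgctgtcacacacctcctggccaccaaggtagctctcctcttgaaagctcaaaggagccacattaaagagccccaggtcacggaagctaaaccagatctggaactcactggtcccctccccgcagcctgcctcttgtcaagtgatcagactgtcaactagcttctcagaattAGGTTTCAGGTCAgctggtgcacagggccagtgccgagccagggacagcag
Echs1: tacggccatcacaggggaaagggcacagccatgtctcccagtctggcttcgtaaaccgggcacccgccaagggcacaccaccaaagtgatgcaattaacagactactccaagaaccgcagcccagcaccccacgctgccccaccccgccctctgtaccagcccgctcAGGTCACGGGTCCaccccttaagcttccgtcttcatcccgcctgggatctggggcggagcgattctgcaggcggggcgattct
A match in these windows describes the letters only, and binding was not tested. A shorter motif of the estrogen-related receptors, TCAAGGTCA, which was added after the data were seen, was found in none of the 27 windows and in 126 of 27025 genes (0.466%).

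Across the 33 genes, 20 were higher (60.6%, against 49.9% of all genes tested) and 13 lower under PSB-KD107 (median log2 fold change 0.08). Of the 33, 24 lay within 0.25 of no change on the log2 scale. None passed the edgeR test, where the smallest adjusted p was 0.184 for Cpt1b, and the test called 0% of all genes. At an unadjusted p under 0.05, 6 genes were higher (18.2%, against 6.47% of all genes tested) and 0 were lower (against 2.93%, and 9.4% for both directions). The 6 were Cpt1b, Acaa2, Acox3, Decr2, Pdk4 and Ucp3. In 11 genes every PSB-KD107 library lay above every vehicle library (33.3%, against 9.2% of all genes), and in 1 gene, Slc22a5, every one lay below (3.03%, against 6.59%, and 15.8% of all genes for both directions). In some of the 11 the margin was narrow, Crat, Etfdh, Hadh and Acaa2 among them. DESeq2, run as an alternative, called Cpt1b and Pdk4 (2 genes, 6.06%, against 2.86% of the genes tested by both tools). In bulk RNA, fewer cells of a type and less RNA per cell cannot be told apart.

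**Figure D1:**
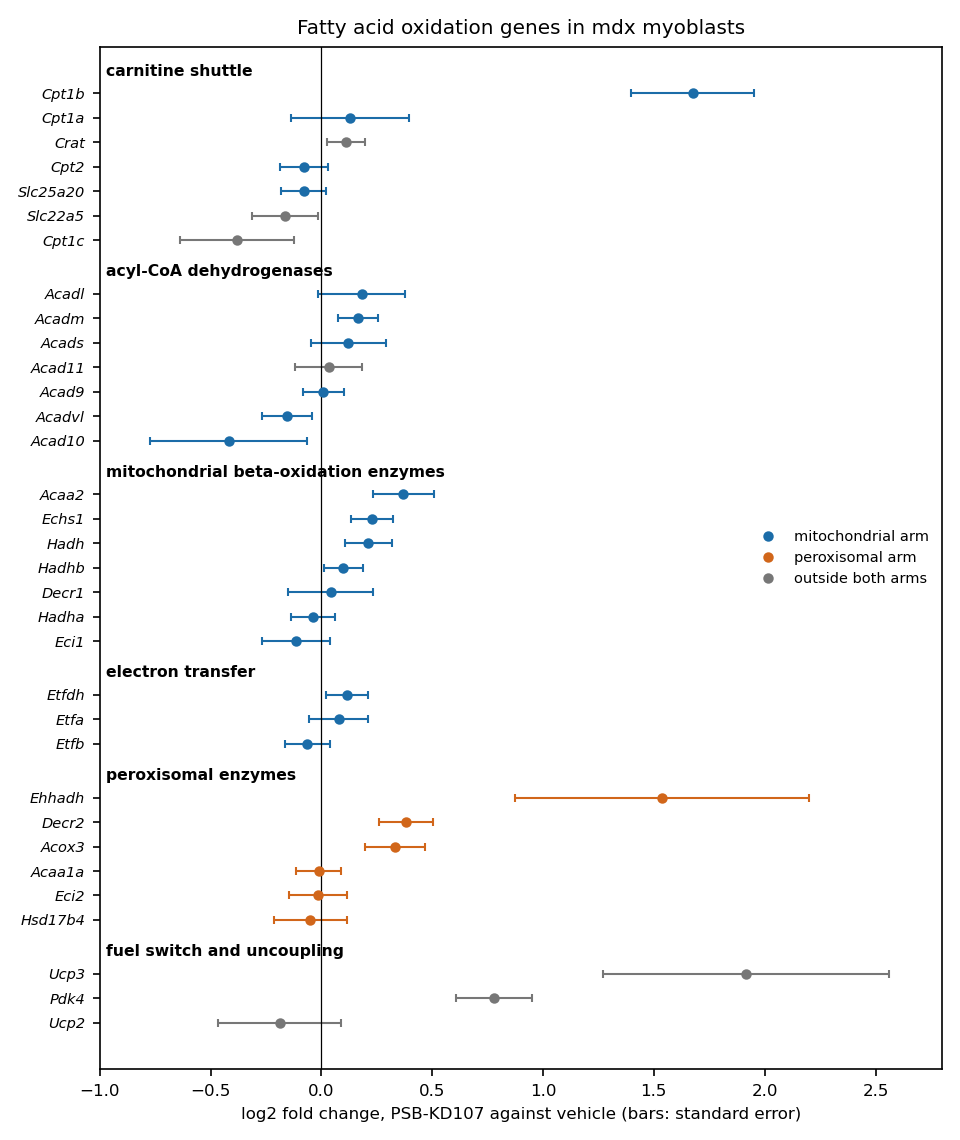
Log2 fold change of each of the 33 genes, PSB-KD107 against vehicle (points, edgeR) with its standard error (bars, n = 3 libraries per group), by role and coloured by arm. Most points lie within 0.25 of 0, and Ucp3, Cpt1b and Ehhadh lie above 1.

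The level of these genes in vehicle-treated cells covered a 1680-fold range per kilobase of transcript. Acadl, the long-chain acyl-CoA dehydrogenase, stood highest at a mean of 169.6 CPM per kb. It was followed by Etfa, a subunit of the electron transfer flavoprotein, at 100.8 CPM per kb and by Acadvl, the very-long-chain dehydrogenase of the inner membrane, at 84.7 CPM per kb. At the low end were Ehhadh at 0.101 CPM per kb, Cpt1b at 0.254 CPM per kb and Ucp3 at 0.836 CPM per kb. The 3 genes with a log2 fold change over 1 were thus the 3 of lowest level, and 29 of the 33 had a vehicle mean over 10 CPM.

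**Figure D2:**
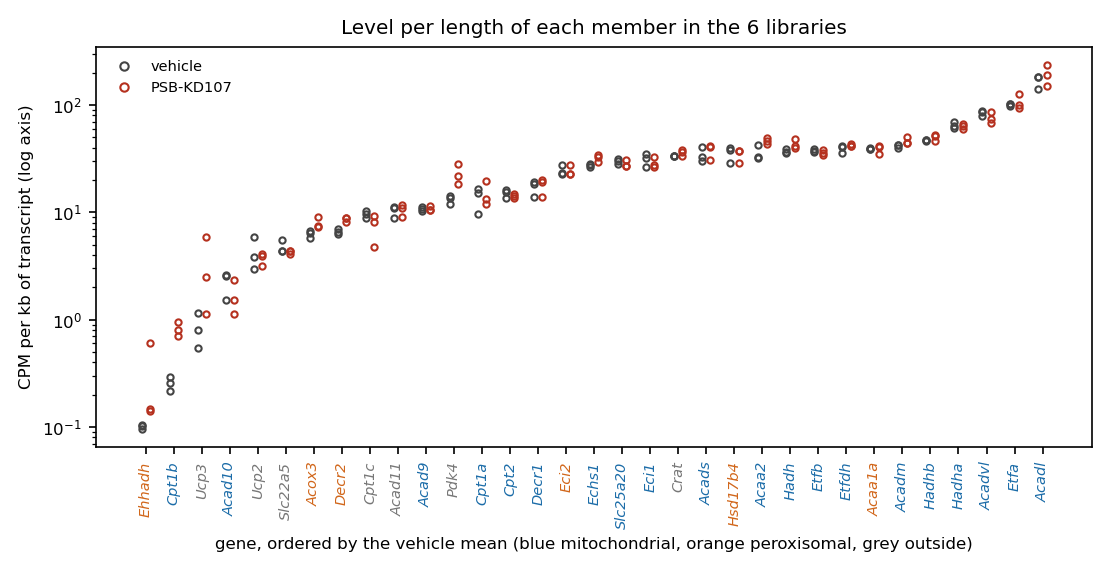
Level of each gene in CPM per kilobase of transcript (log axis) in the 3 vehicle and the 3 PSB-KD107 libraries (1 point per library), ordered by the vehicle mean. The genes of large difference, Ehhadh, Cpt1b and Ucp3, stand at the low end, and the groups overlap or nearly overlap over most of the upper range.

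In the carnitine shuttle, the muscle isoform Cpt1b (chr15:89416405-89425863, minus strand, GRCm38) was the member of smallest p. Its vehicle libraries 1, 2 and 4 were at 0.842, 0.745 and 0.620 CPM, and its PSB-KD107 libraries 1, 2 and 4 at 2.05, 2.31 and 2.72 CPM. These rested on 33, 26 and 20 counts in vehicle and on 103, 72 and 99 counts under PSB-KD107. Every treated library thus lay above every vehicle library, from 0.736 ± 0.111 to 2.36 ± 0.341 CPM (SD, n = 3), a ratio of 3.21. The log2 fold change was 1.68 (SE 0.28, adjusted p = 0.184 in edgeR, 2.09e-04 in DESeq2). Its mean was 0.254 CPM per kb in vehicle and 0.815 CPM per kb under PSB-KD107, so that a filter at 1 FPKM, which the study's methods apply, leaves it out and ends that DESeq2 call. Cpt1b lies inside an annotated readthrough gene, Gm44502, that shares its strand and that was not among the genes listed, and the rule by which shared reads were assigned is not given in the sources used here. The neighbouring gene Chkb, which the readthrough joins to Cpt1b, was at 18.2, 17.1 and 15.8 CPM in vehicle and 21.2, 20.7 and 15.8 CPM under PSB-KD107 (log2 fold change 0.18, SE 0.16).

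Cpt1a (chr19:3322334-3385733) was at 41.6, 65.2 and 70.6 CPM in vehicle and at 51.9, 84.4 and 57.8 CPM under PSB-KD107. Cpt1c (chr7:44959372-44974851) was at 28.6, 26.7 and 24.9 CPM in vehicle and at 22.6, 25.9 and 13.2 CPM under PSB-KD107. Both groups overlapped for each gene, with log2 fold changes of 0.13 (SE 0.27, adjusted p = 0.902) for Cpt1a and -0.38 (SE 0.26, adjusted p = 0.696) for Cpt1c. Per kilobase, Cpt1b made up 1.44, 1.03 and 0.841% of the summed CPT1 isoforms in vehicle libraries 1, 2 and 4 and 3.40, 2.69 and 4.94% in the PSB-KD107 libraries. The share was 1.11 ± 0.308% in vehicle and 3.68 ± 1.15% under PSB-KD107 (SD, n = 3, exact two-sided permutation test, p = 0.1, the smallest that 3 against 3 allows). Cpt1a was the main isoform on this scale, at 57.5 ± 8.61% in vehicle and 64.7 ± 6.36% under PSB-KD107 (exact permutation p = 0.4), and Cpt1c made up 41.4 ± 8.31% and 31.6 ± 7.04% (exact permutation p = 0.3).

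The rest of the shuttle differed little. The inner-membrane enzyme Cpt2 and the translocase Slc25a20 both had a log2 fold change of -0.08 and overlapping groups. Crat, the carnitine acetyltransferase, which lies outside both arms, had a log2 fold change of 0.11 (SE 0.09, adjusted p = 0.734). Its groups only just failed to overlap, with the lowest treated library at 142.981 CPM and the highest vehicle library at 142.795 CPM. Slc22a5, the carnitine importer of the plasma membrane, was at 13.4, 16.7 and 13.5 CPM in vehicle and at 13.2, 13.2 and 12.5 CPM under PSB-KD107. It is named because it was the only member whose treated libraries all lay below the vehicle ones, with a log2 fold change of -0.16 (SE 0.15, adjusted p = 0.774).

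Among the 7 acyl-CoA dehydrogenases, which catalyse the first step of mitochondrial beta-oxidation, 5 were higher and 2 lower (median 0.03 on the log2 scale), none with an unadjusted p under 0.05. Acadl was at 272.3, 351.7 and 350.9 CPM in vehicle and at 286.5, 368.5 and 450.5 CPM under PSB-KD107, groups that overlapped. Acadvl was at 173.0, 186.3 and 191.5 CPM in vehicle and at 147.8, 161.3 and 185.6 CPM under PSB-KD107, also with overlap (log2 fold change -0.16, SE 0.11, adjusted p = 0.718). Only Acadm, the medium-chain enzyme, had groups that did not overlap, with a log2 fold change of 0.17 (SE 0.09, adjusted p = 0.633). Acads, the short-chain enzyme, stood at 0.12, Acad11 at 0.03 and Acad9, which also assists the assembly of complex I, at 0.01. Acad10 had the lowest value of all members at -0.42 (SE 0.35, adjusted p = 0.754).

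Of the 7 other mitochondrial beta-oxidation enzymes, 5 were higher and 2 lower. In 3 the groups did not overlap, all higher, against 9.2% of all genes tested. Acaa2 (chr18:74779197-74806208), the thiolase that closes the spiral, was at 64.5, 48.9 and 49.3 CPM in vehicle and at 74.4, 70.2 and 65.6 CPM under PSB-KD107. Echs1 (chr7:140105710-140116476), the short-chain enoyl-CoA hydratase of the promoter shown above, was at 40.9, 43.5 and 43.2 CPM in vehicle and at 50.6, 52.8 and 46.2 CPM under PSB-KD107. The lowest treated library lay above the highest vehicle library in both, by a narrow margin in Acaa2, where vehicle library 1 stood apart from vehicle libraries 2 and 4. The log2 fold change was 0.37 for Acaa2 (SE 0.14, adjusted p = 0.489) and 0.23 for Echs1 (SE 0.10, adjusted p = 0.541). Hadh, the 3-hydroxyacyl-CoA dehydrogenase of medium and short chains, had a log2 fold change of 0.21 (SE 0.11, adjusted p = 0.615). Its margin was also narrow, with the lowest treated library at 71.5 CPM and the highest vehicle library at 70.3 CPM. The subunits of the trifunctional protein, Hadha and Hadhb, stood at -0.04 and 0.10, and Decr1 and Eci1, needed for unsaturated chains, at 0.04 and -0.11.

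The 3 electron transfer genes ran from -0.06 for Etfb to 0.12 for Etfdh, the oxidoreductase that hands the electrons to ubiquinone and the only one of the 3 whose groups did not overlap. For Etfdh the lowest treated library was at 98.6 CPM and the highest vehicle library at 97.7 CPM. Etfa was at 141.1, 137.2 and 142.7 CPM in vehicle and at 138.9, 129.4 and 176.0 CPM under PSB-KD107, where library 4 alone lay above the vehicle range.

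The peroxisomal enzymes fell into 2 sets of 3 genes by their values. Decr2, the peroxisomal dienoyl-CoA reductase (chr17:26081208-26090337), was at 15.5, 14.6 and 13.9 CPM in vehicle and at 19.7, 19.6 and 18.2 CPM under PSB-KD107. Acox3, an acyl-CoA oxidase for branched chains (chr5:35583040-35615352), was at 26.8, 25.3 and 23.0 CPM in vehicle and at 36.0, 29.1 and 29.4 CPM under PSB-KD107. Both groups were clear of each other in either gene, with log2 fold changes of 0.38 (SE 0.12, adjusted p = 0.417) for Decr2 and 0.33 (SE 0.13, adjusted p = 0.523) for Acox3. Ehhadh, the L-bifunctional enzyme (chr16:21761287-21787807), was at 0.306, 0.286 and 0.310 CPM in vehicle and at 0.437, 0.417 and 1.79 CPM under PSB-KD107. The treated libraries again all lay above the vehicle ones, but library 4 stood far above the other two, with 65 counts against 22 and 13. The log2 fold change of Ehhadh was 1.54 (SE 0.66, adjusted p = 0.555) and 0.50 without that library.

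The other 3 peroxisomal genes showed overlapping groups and values near 0. Acaa1a, the peroxisomal thiolase, was at 70.6, 68.5 and 69.2 CPM in vehicle and at 71.2, 73.9 and 61.5 CPM under PSB-KD107 (log2 fold change -0.01, SE 0.10). Eci2, an enoyl-CoA isomerase found in peroxisomes and mitochondria, was at 48.0, 41.0 and 39.8 CPM in vehicle and at 48.2, 39.4 and 39.8 CPM under PSB-KD107 (log2 fold change -0.02, SE 0.13). Hsd17b4, the D-bifunctional enzyme, was at 77.5, 102.8 and 106.6 CPM in vehicle and at 77.9, 99.3 and 99.9 CPM under PSB-KD107 (log2 fold change -0.05, SE 0.17). In Eci2 and Hsd17b4, library 1 of each group stood apart from libraries 2 and 4 in the same direction, so that the spread within each group was wider than the difference between them.

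**Figure D3:**
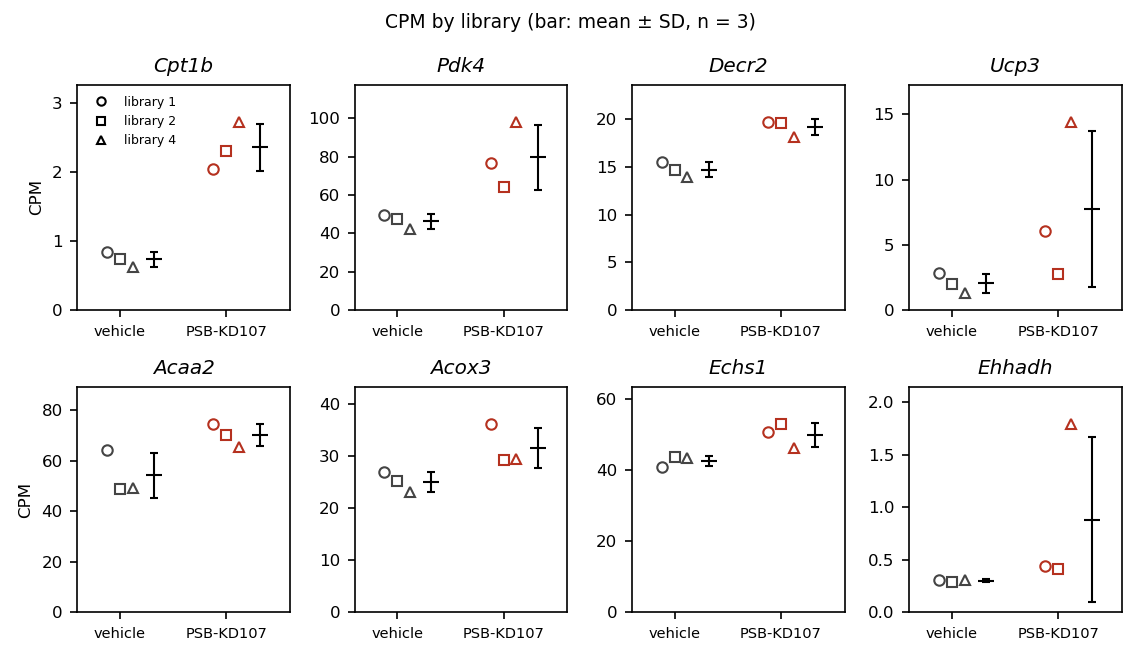
CPM (linear axes from 0) in each library for the 8 genes of smallest p, with the mean and SD of each group (n = 3) beside the points. The groups are separate in each gene except Ucp3, and PSB-KD107 library 4 (triangles) lies far above the others in Ucp3 and Ehhadh.

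Set side by side, the mitochondrial arm had 13 of 20 genes higher at a median of 0.09 on the log2 scale, and the peroxisomal arm 3 of 6 at 0.16. Groups did not overlap, all higher, in 6 of the 20 mitochondrial and 3 of the 6 peroxisomal genes, against 9.2% of all genes. In each arm 2 genes were higher at an unadjusted p under 0.05, against 6.47% of all genes. The median log2 difference of the mitochondrial genes from the vehicle mean was -0.025, 0.023 and 0.024 in vehicle libraries 1, 2 and 4 and 0.037, 0.092 and 0.14 in PSB-KD107 libraries 1, 2 and 4. For the peroxisomal genes it was 0.052, -0.013 and -0.040 in vehicle and 0.295, 0.155 and 0.155 under PSB-KD107. The treated libraries thus lay above the vehicle libraries in both arms, though narrowly in the mitochondrial arm (0.037 against 0.024). Between libraries 1, 2 and 4 of the same number, not stated to be pairs, median mitochondrial differences were 0.024, -0.0033 and 0.088. The peroxisomal ones were 0.175, 0.157 and 0.176. The peroxisomal median difference from the vehicle mean exceeded the mitochondrial one in each treated library, by the least in library 4. The arms' medians of log2 fold change differed by 0.07, and the peroxisomal one was the midpoint between Acaa1a (-0.01) and Acox3 (0.33). For the per-library medians above, the SD of the arms' difference over the treated libraries was larger, 0.129. That SD leaves out the vehicle spread, and no test across genes was made. The difference of 0.07 turned to -0.09 when genes under 1 FPKM in both groups were left out as the study's methods do. That filter removed Ehhadh and Cpt1b and kept 31 of the 33 genes.

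As summed CPM, which the abundant genes dominate, the vehicle and PSB-KD107 libraries overlapped in both arms. The mitochondrial genes summed to 1731 ± 56.2 CPM in vehicle and 1818 ± 134 CPM under PSB-KD107 (SD, n = 3, exact two-sided permutation p = 0.4). The peroxisomal genes summed to 248 ± 8.03 CPM and 255 ± 5.82 CPM (exact permutation p = 0.4). The ratios of the means were 1.05 and 1.03.

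**Figure D4:**
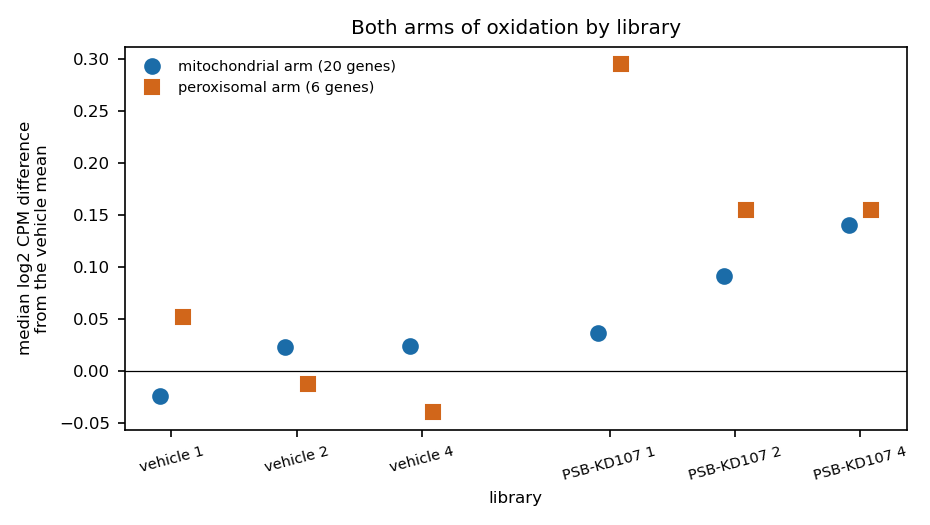
Median log2 CPM difference from the vehicle mean over the 20 mitochondrial genes (circles) and the 6 peroxisomal genes (squares) in each of the 6 libraries. In both arms the 3 PSB-KD107 libraries lie above the 3 vehicle libraries, narrowly in the mitochondrial arm. The peroxisomal median reaches 0.295 in PSB-KD107 library 1.

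Among the fuel-switching and uncoupling genes, Pdk4 (chr6:5483351-5496309), the kinase that inhibits pyruvate dehydrogenase and so spares glucose when fat is burned, was at 49.7, 47.3 and 42.1 CPM in vehicle and at 76.5, 64.3 and 97.9 CPM under PSB-KD107. Every treated library lay above every vehicle library, a ratio of means of 1.72. The log2 fold change was 0.78 (SE 0.17, adjusted p = 0.253 in edgeR, 0.0209 in DESeq2). Without PSB-KD107 library 4 it was 0.60, and over the 6 fits that each left out 1 library the DESeq2 adjusted p ran from 5.80e-04 to 0.273, with 3 of the 6 under 0.05. For Cpt1b the same range was 5.51e-04 to 0.00803.

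Ucp3, a mitochondrial carrier typical of muscle (chr7:100472990-100486432), was at 2.83, 1.98 and 1.33 CPM in vehicle and at 6.08, 2.76 and 14.4 CPM under PSB-KD107. The groups overlapped, since treated library 2 lay below vehicle library 1, and the counts of the treated libraries were 306, 86 and 524. The log2 fold change was 1.92 (SE 0.65, adjusted p = 0.440), the largest of the 33, and 1.11 without PSB-KD107 library 4. Ucp2, the related carrier of many tissues (chr7:100493337-100502020), was at 23.4, 15.4 and 11.8 CPM in vehicle and at 16.2, 15.7 and 12.5 CPM under PSB-KD107, with a log2 fold change of -0.19 (SE 0.28, adjusted p = 0.857).

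PSB-KD107 library 4 held the highest level of 12 of the 33 genes, among them Cpt1b, Acadl, Hadh, Ehhadh, Pdk4 and Ucp3. PSB-KD107 library 1 held that of 7, library 2 that of 3, and the vehicle libraries those of 4, 3 and 4. How often each library was highest over all genes was not computed, so these counts cannot be set apart from the libraries as a whole. The summed markers of muscle differentiation were lower in all 3 treated libraries than in the vehicle ones, as given above, and Myh3, an embryonic myosin heavy chain, made up the largest share of that sum. Of the 7 markers 4 were lower and 3 higher. Groups did not overlap in Myh3 (log2 fold change -0.44) and in Myog, an early gene of differentiation (-0.49). They overlapped in the other 5, among them Ckm, the muscle creatine kinase (0.33), and Acta1 and Tnnt3 (both 0.01), which encode parts of the contractile apparatus. In PSB-KD107 library 4, Ckm (817.6 CPM) and Acta1 (8895 CPM) were at their highest of all libraries. Myh3 was at its lowest there (11842 CPM), and Myog, Tnnt3, Mybph and Myh8 were at neither extreme. Pax7 was lower in every treated library, the only 1 of the 7 myoblast markers whose groups did not overlap. Of those 7, 5 were lower and 2 higher. The part of these markers in the values of the oxidation genes was not tested.

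The genes around the pathway were counted in lists written for this purpose, and none of their members passed the edgeR test. Of all 14165 genes tested, 7066 were higher and 7099 lower. Of 16 tested genes for fatty acid uptake and activation, 10 were higher and 6 lower (median log2 fold change 0.38). At an unadjusted p under 0.05, 5 were higher and 0 lower, against 6.47% and 2.93% of all genes tested. Acsl3, an acyl-CoA synthetase, was at 461.4, 464.2 and 477.3 CPM in vehicle and at 671.9, 831.2 and 701.5 CPM under PSB-KD107 (log2 fold change 0.65, SE 0.12, adjusted p = 0.196 in edgeR, 5.89e-04 in DESeq2). The synthetase Acsl5 had a log2 fold change of 0.82 and the fatty acid transporter Slc27a1 one of 1.35. Groups did not overlap, all higher, in 5 of the 16 genes, Acsl5 and Slc27a1 among them, against 9.2% of all genes tested.

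Malonyl-CoA is the inhibitor of CPT1, and all 3 genes that set its level had positive values, against 49.9% of all genes tested. Acaca, the acetyl-CoA carboxylase of fatty acid synthesis, was at 50.1, 34.1 and 36.8 CPM in vehicle and at 132.7, 101.9 and 71.4 CPM under PSB-KD107 (log2 fold change 1.34, SE 0.26, adjusted p = 0.228 in edgeR, 9.45e-04 in DESeq2). Acacb, the carboxylase at the mitochondrial surface, was at 15.9, 16.1 and 13.1 CPM in vehicle and at 26.3, 21.1 and 28.2 CPM under PSB-KD107 (log2 fold change 0.75, SE 0.17, adjusted p = 0.253 in edgeR, 0.0121 in DESeq2). In both carboxylases the groups were separate and higher, against 9.2% of all genes tested. Mlycd, the decarboxylase that removes malonyl-CoA, had a log2 fold change of 0.22 (SE 0.14, adjusted p = 0.686) and overlapping groups.

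Among 12 PPAR receptors and coactivators, 6 were higher and 6 lower (median log2 fold change 0.01). At an unadjusted p under 0.05, 4 were higher and 0 lower, against 6.47% and 2.93% of all genes tested. Ppargc1a, the coactivator PGC-1α, was at 6.35, 10.1 and 7.07 CPM in vehicle and at 17.8, 23.1 and 53.0 CPM under PSB-KD107 (log2 fold change 2.00, SE 0.46, adjusted p = 0.264 in edgeR, 0.00129 in DESeq2). Lpin1, a phosphatidate phosphatase that also acts as a coactivator, had a log2 fold change of 0.87 and Esrra, an estrogen-related receptor, one of 0.53. Treated libraries lay above all vehicle libraries in each of these 3 genes, the 3 of smallest p in the list, against 9.2% of all genes tested. In 1 of the 12, Rxrb, they all lay below (log2 fold change -0.16), against 6.59% of all genes tested.

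Of 7 pyruvate dehydrogenase kinases, phosphatases and subunits, 5 were higher and 2 lower, where 49.9% of all genes tested were higher. Pdp2, a phosphatase that opposes Pdk4, had a log2 fold change of 1.03 (adjusted p = 0.282 in edgeR, 0.0128 in DESeq2), and the subunit gene Pdha1 one of 0.20. The kinase Pdk1 had one of 1.61 (SE 0.89, adjusted p = 0.639), with PSB-KD107 library 4 far apart at 356.9 CPM against 116.2 and 40.6 CPM in the other two and 106.0, 38.5 and 24.1 CPM in vehicle.

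Beyond the 6 peroxisomal members, 13 of 16 other peroxisomal oxidation and transport genes were higher (median log2 fold change 0.20), against 49.9% of all genes tested. Pecr, the peroxisomal trans-2-enoyl-CoA reductase, had a log2 fold change of 0.43 (SE 0.21, adjusted p = 0.599) and Crot, the carnitine octanoyltransferase, one of 0.28 (SE 0.17, adjusted p = 0.670), both with overlapping groups. Of 18 peroxins, which build the organelle, 9 were higher and 9 lower (median 0.02). Pex11a, a peroxin of peroxisome division, stood at 0.30 and Pex6, of the import machinery, at -0.25. By contrast, 16 of 18 genes for branched-chain and short-chain acyl-CoA breakdown were lower (median -0.13), against 7099 of all 14165 genes tested. The 3 of smallest p were Bckdha, a subunit of the branched-chain ketoacid dehydrogenase, at -0.46, Aldh6a1 at -0.44 and Ivd at -0.38, all with overlapping groups. The lowest value was -0.48 for Gcdh, also with overlap. The groups were separate and lower in 1 of the 18 genes, Hibadh, at -0.24, against 6.59% of all genes tested. Gcdh and Hibadh were named after their values were seen.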

How the data were processed

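RNA from mdx myoblasts was sequenced by the authors as paired-end reads from polyadenylated RNA with a strand-marking kit, and aligned with STAR to mm10. The deposited file holds raw gene-level counts for each library. No normalization was seen in it. The counting program, its annotation and its use of strand are not given in the sources used here, and 20 of the 33 members overlap another annotated gene, in 6 cases one with at least 50 counts in a library (Crat, Acadvl, Echs1, Etfdh, Acaa1a and Hsd17b4). Counts of those members could hold reads of the other gene. Acaa1a also has the near-identical copy Acaa1b, which held at most 2 counts in a library, against 2232 to 3581 for Acaa1a. How reads that match both copies were assigned is not given.

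Groups came from the sample records and the column names. The 2 columns with the number 4 match a group by name, and no single record. Analyses used R 4.3.3 with edgeR 4.0.16, limma 3.58.1 and DESeq2 1.42.0, and Python 3.11.15 with pandas 2.3.3 and matplotlib 3.10.9. Genes were filtered with filterByExpr, scaled with TMM factors and tested with edgeR's quasi-likelihood test, with Benjamini-Hochberg adjustment over 14165 genes and a threshold of 0.05. P-values measure the spread between these libraries. The scripts were tested on simulated data. Values by library are CPM, errors are SDs over 3 libraries, and log2 values of single libraries carry an offset of 0.1 CPM. Level per kb divides by the principal transcript of GENCODE M21 (GRCm38), which has an entry for 46574 of the listed genes. Promoters are from RefSeq (GRCm38.p6). Protein sequences were not analysed here.

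The members, arms and lists were chosen with earlier results of these data known. Values in every library are given for the members of the 8 smallest p-values, the peroxisomal arm, the CPT1 isoforms, Pdk4, Ucp2, Ucp3 and the 3 of highest level per kb, and for up to 3 genes of smallest p in each related list where space allowed. A gene that this rule would name is not reported here. The alternatives were RLE factors, no filter, a filter at 1 FPKM, limma-voom, DESeq2, a replicate block, other arm assignments and leaving out each library.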

Additional observations from a re-analysis of the deposited data

How the results depend on the processing

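Counts of calls depended on the tool and its design. Without a filter on low counts 8 genes of the whole table passed, with DESeq2 407, among them 2 members, and 0 with limma-voom. Leaving out each library in turn, edgeR called 0 genes every time, and DESeq2 called 1 to 4 of the 33 members (3 without PSB-KD107 library 2). It called 613, 175 and 164 genes without vehicle library 1, 2 or 4 and 275, 764 and 672 without PSB-KD107 library 1, 2 or 4. These fits gave p-values for 23453 to 23869 genes. In edgeR, members higher at an unadjusted p under 0.05 then numbered 2 to 6 of the 33, with 2 without vehicle library 2 and 2 without vehicle library 4. The share of all genes at that threshold was not computed for these fits.

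The library numbers are not stated to pair the samples. Same-numbered deviations from the group means correlated at 0.63 and 0.52 for numbers 1 and 2 and at -0.13 for number 4, while vehicle library 4 and PSB-KD107 library 2, of unlike number, correlated at 0.64. A replicate block on numbers 1 and 2 alone called 2456 of 14400 genes (17.1%) and 8 of 33 members (24.2%: Cpt1a, Cpt1b, Echs1, Acaa2, Acox3, Decr2, Pdk4 and Ucp3), with 1 member lower at an unadjusted p under 0.05 and a mitochondrial median of 0.0096. A block over all 6 libraries called 0 genes. The same 4 libraries without a block gave 2 members higher at an unadjusted p under 0.05 and a mitochondrial median of 0.011. The share of all genes at that unadjusted threshold was not computed for these 4 libraries. In the fit of all 6 libraries without a block it was 6.47% for higher and 2.93% for lower. With and without the block, respectively, those 4 libraries turned the sign of Acads (-0.029, -0.025), Acad11 (-0.0025, -0.0072), Eci1 (0.016, 0.018), Etfa (-0.055, -0.054) and Acaa1a (0.059, 0.060), all near 0.

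The arm medians moved with their membership. The peroxisomal median was -0.016 with genes under 1 FPKM left out, 0.072 with Crat and Acad11 added and 0.33 with Eci2 counted as mitochondrial, and it ran from 0.13 to 0.22 when 1 library was left out. The mitochondrial median ran from 0.020 (without PSB-KD107 library 4) to 0.089, and the difference between arms from 0.040 to 0.20 (without PSB-KD107 library 4), with -0.091 under the FPKM filter and 0.25 with Eci2 moved. The difference in the Cpt1b share of CPT1, PSB-KD107 minus vehicle, was 1.94 to 3.06 percentage points without 1 library.

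Members with log2 values near 0 changed sign. Acad9 was at -0.0047 with RLE factors and at -0.0030 with DESeq2. Leaving out 1 library gave -0.11 to 0.28 for Cpt1a, -0.045 to 0.034 for Acad9, -0.074 to 0.12 for Acad11, -0.098 to 0.010 for Hadha, -0.096 to 0.18 for Decr1, -0.066 to 0.16 for Etfa, -0.071 to 0.062 for Acaa1a, -0.13 to 0.067 for Eci2, -0.19 to 0.045 for Hsd17b4 and -0.39 to 0.12 for Ucp2. The cause of these changes was not tested. In vehicle, Cpt1b rested on 20 to 33 counts per library and Ehhadh on 10 to 12, the lowest counts of the 33 members.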
